A study of Homo sapiens with 8 samples.

Results

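The mitotic genes of G2 and M phase are 42 genes whose products drive cells into mitosis, build the spindle, hold the checkpoint and divide the cell. They were chosen by name, as the rows of the deposited table whose gene symbol is on a fixed list, and 42 of 42 were present among 63129 genes. All 42 passed the minimum mean of 1 RPKM over the 8 libraries, which left 14732 genes to be tested. RPKM is the number of reads per kilobase of gene after correction for the sequencing depth of the library. The lowest mean was that of CDC25C (9.33 RPKM) and the highest that of CCNB1 (187 RPKM), so the filter on low values removed no member.

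RNA sequencing was examined in LP-1, an established human multiple myeloma cell line, after 6 hr with SGC-CBP30 or CPI203 or with DMSO, the solvent of the compounds. SGC-CBP30 (2.5 μM) inhibits the bromodomains of the co-activators CBP and EP300, and CPI203 (250 nM) inhibits those of the BET family. The 8 libraries were taken as 2 experiments, each with 2 libraries of a compound and 2 of DMSO, so that the compounds do not share controls. All 4 groups are labelled as the same line, with no genetic change or further agent named, and the doses differ, so that changes with the compounds are given side by side. DMSO libraries were matched to their compound by the series in which the labels name the libraries. The labels do not state this matching or name an experiment.

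Most of these genes are silent or low in G1 and are switched on together late in the cycle. Their promoters commonly carry CCAAT boxes, which NF-Y binds, and a cell cycle genes homology region (CHR), a short element read by the MuvB complex. With the pocket proteins RBL1 and RBL2 and the factors E2F4 or E2F5, MuvB forms the repressive DREAM complex, and with B-MYB (MYBL2) and FOXM1 it activates the same promoters. In dividing cells, the summed level of these transcripts follows the share of cells in G2 and M phase.

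The promoter letters below are given for 6 members, 4 as examples of different roles and BUB1 and CDC25B as the members called lower with SGC-CBP30. Each line holds the 120 bases before the start site on the strand of the gene, from the RefSeq promoter table of assembly GRCh38.p14. Capitals mark the CHR letters TTTGAA or TTTAAA and the CCAAT box, read on either strand (TTCAAA and ATTGG are the reverse strand of TTTGAA and CCAAT).

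CCNB1 (chr5:69167030-69167149, plus strand): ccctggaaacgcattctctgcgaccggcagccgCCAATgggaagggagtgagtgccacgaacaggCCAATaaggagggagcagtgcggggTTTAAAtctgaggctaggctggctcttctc
PLK1 (chr16:23678769-23678888, plus strand): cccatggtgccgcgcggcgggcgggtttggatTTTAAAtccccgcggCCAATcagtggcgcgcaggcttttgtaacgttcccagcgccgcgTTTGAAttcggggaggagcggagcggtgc
KIF20A (chr5:138178992-138179111, plus strand): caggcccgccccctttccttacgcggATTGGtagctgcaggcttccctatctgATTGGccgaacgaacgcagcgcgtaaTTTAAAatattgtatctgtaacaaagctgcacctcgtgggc
ASPM (chr1:197146670-197146789, minus strand): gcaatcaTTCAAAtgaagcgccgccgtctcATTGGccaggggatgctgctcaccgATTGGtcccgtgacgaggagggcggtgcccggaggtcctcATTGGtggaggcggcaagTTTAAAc
BUB1 (chr2:110678064-110678183, minus strand): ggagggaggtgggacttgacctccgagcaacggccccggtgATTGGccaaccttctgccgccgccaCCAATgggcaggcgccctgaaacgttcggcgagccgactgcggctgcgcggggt
CDC25B (chr20:3786831-3786950, plus strand): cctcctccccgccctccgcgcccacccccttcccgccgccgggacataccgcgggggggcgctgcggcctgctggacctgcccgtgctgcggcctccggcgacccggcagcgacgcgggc

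CCNB1 held CCAAT 87 and 55 bases and TTTAAA 30 bases before the start site, counted to the first letter of the match. PLK1 held TTTAAA at 88, CCAAT at 73 and TTTGAA at 29 bases, and KIF20A held CCAAT at 94 and 67 and TTTAAA at 41 bases. The BUB1 stretch held CCAAT at 79 and 54 bases and neither CHR word, and the CDC25B stretch held none of the 3 words. The RefSeq table matched 34 of the 42 members and not AURKA, FOXM1, TPX2, BIRC5, BUB3, TTK, UBE2C or CENPM. In the window from 250 bases before to 50 bases after the start site, TTTGAA or TTTAAA was present in 27 of 34 member promoters (79.4%), against 24.3% of 27305 promoters in the table and 15.2% of the 8419 promoters of genes tested here. CCAAT was present in 27 of 34 (79.4%), against 35.7% of all promoters and 38% of those of genes tested. The letters GGCGGGAA and TTTCGCGC, which resemble E2F sites and were likewise searched on both strands, were each present in 1 of 34 (2.94%), against 3.18% and 0.546% of all promoters. No searched word contains another, TTTAAA reads the same on both strands, and a match is a description of the window only. A single start site was used per gene, so a word near another start site would be missed. The median log2 fold change of the 27 members with a CHR word was 0.29 (SGC-CBP30) and 0.50 (CPI203), and that of the 7 without one was 0.27 and 0.71. Of these 7, BUB1 and CDC25B fell with SGC-CBP30, while CCNA2, CDC25C, AURKB, NEK2 and CKAP2 rose (0.25 to 0.51).

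With SGC-CBP30, most mitotic genes were slightly higher than in DMSO and only 2 fell by 1.5-fold or more. Summed over the 42 members, the level was 2132 and 2131 RPKM in the DMSO libraries and 2403 and 2453 RPKM with SGC-CBP30. With CPI203 the rise was larger, from 1917 and 1943 RPKM in DMSO to 2450 and 2404 RPKM. The treated libraries of both compounds reached about the same sum, and the larger rise with CPI203 started from lower DMSO values. Neither pair of treated libraries overlapped its DMSO pair in this sum. In a bulk culture, a larger share of cells in G2 and M phase cannot be told apart from more of these transcripts in each cell.

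Values were converted to log2(RPKM + 0.1) and fitted with limma, with Benjamini-Hochberg adjustment over all 14732 genes. A call required 1.5-fold or more (0.585 on the log2 scale) together with an adjusted p under 0.05. With SGC-CBP30, 2 of 42 members were called lower, where 3.79% of all genes tested were, and 3 were called higher, where 3.47% of all genes were. At an adjusted p under 0.05 with no minimum fold, 3 members were lower (14.8% of all genes) and 34 were higher (25.6% of all genes). The median log2 fold change of the members was 0.276, against 0.07 over all genes tested. With CPI203, no member was called lower (14.4% of all genes) and 16 were called higher (13.4% of all genes). At an adjusted p under 0.05 alone, 6 were lower (33.1% of all genes, and also 6 members at an unadjusted p under 0.05) and 31 higher (31.1% of all genes), and the median was 0.491, against -0.015 over all genes. Many of these small changes depended on the settings. Of the 34 members higher with SGC-CBP30, 18 passed the test under every setting tried, and ANLN, AURKB, BUB3, CDC20, CDC25C, CKAP2, DEPDC1, GTSE1, HMMR, KIF14, KIF4A, NUSAP1, PLK1, PRC1, PTTG1 and TPX2 failed it under some, as did CENPM among the 3 lower. With CPI203, 25 of the 31 higher passed under every setting (not AURKA, AURKB, CCNA2, CDC20, CENPF and TPX2), and 2 of the 6 lower (not BIRC5, BUB1, BUB3 and UBE2C). The most were lost with all 4 DMSO libraries as controls, 11 with SGC-CBP30 and 7 with CPI203. In the SGC-CBP30 experiment 2 were lost without DMSO replicate 1, 7 without DMSO replicate 2, 4 without SGC-CBP30 replicate 1 and 8 without SGC-CBP30 replicate 2, and in the CPI203 experiment 2, 2, 4 and 2 in the same order. The largest difference of a member between replicates was 0.392 on the log2 scale (DEPDC1, DMSO of the CPI203 experiment), and the median member differed by 0.047 to 0.071.

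**Figure D1:**
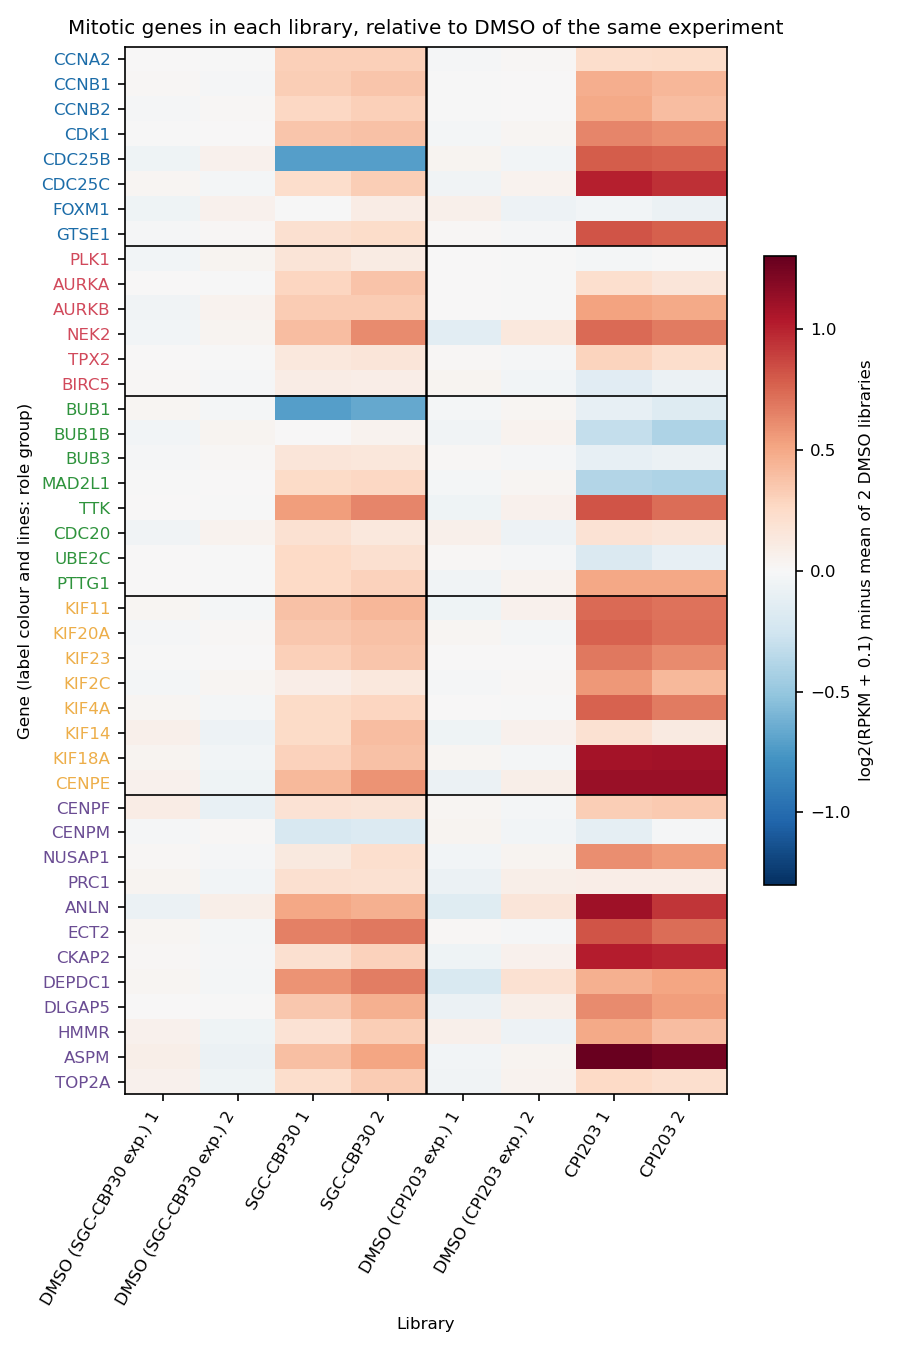
Heat map of the 42 mitotic genes (rows, grouped by role) in the 8 libraries (columns). Colour gives log2(RPKM + 0.1) minus the mean of the 2 DMSO libraries of the same experiment. CPI203 columns are mostly darker red than SGC-CBP30 columns, CDC25B and BUB1 are blue with SGC-CBP30, and BUB1B and MAD2L1 are blue with CPI203.

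The depth estimated from steps of single reads in low RPKM values was between 26200000 and 49900000 reads per library, and the SGC-CBP30 libraries were deeper than their DMSO libraries. All 8 plasma cell markers examined (SDC1, TNFRSF17, IRF4, PRDM1, XBP1, CD38, SLAMF7 and MZB1) were present, between 10.9 and 531 RPKM. Their sum was lower with both compounds, 904 to 931 RPKM with SGC-CBP30 against 1224 to 1273 RPKM in its DMSO, and 828 to 842 RPKM with CPI203 against 1318 to 1332 RPKM. Single markers did not all follow the sum, since SDC1 was at 0.14 on the log2 scale in the SGC-CBP30 experiment (adjusted p = 0.166) and PRDM1 rose by 0.36 with CPI203 (adjusted p = 6.74e-05). The 10 markers of other cell types summed to between 1.07 and 4.17 RPKM, of which HBB gave most, and MPO and EPCAM were at 0. IRF4, the reference gene of the series, had log2 fold changes of -1.36 and -0.17 with SGC-CBP30 and CPI203. The DMSO pairs of the 2 experiments also differed in mitotic genes. In the DMSO libraries of CPI203, 32 of 42 members were lower than in those of SGC-CBP30, with a median log2 difference of -0.13 (-0.69 for AURKB to 0.30 for DEPDC1), while the median over all genes was 0.01.

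Cyclins and their kinase form the engine of mitotic entry. Of the 8 members of this group, 6 rose with SGC-CBP30 at an adjusted p under 0.05 (25.6% of all genes). With CPI203, 7 of 8 rose (31.1% of all genes), 4 of them by 1.5-fold or more (13.4% of all genes). CCNB1, the B-type cyclin that activates CDK1, was the most abundant member, at 164 and 161 RPKM in DMSO and 203 and 208 RPKM with SGC-CBP30. In the CPI203 experiment it was at 161 and 161 RPKM in DMSO and 223 and 218 RPKM with the compound. Treated and control values did not overlap in either experiment, and the log2 fold changes of 0.34 ± 0.03 (SE; adjusted p = 4.25e-05) and 0.45 ± 0.03 (adjusted p = 1.04e-06) were both under 1.5-fold. CDK1, the kinase itself, was at 84.3 and 85.3 RPKM in DMSO and 109 and 110 RPKM with SGC-CBP30. With CPI203 it rose from 84.9 and 88.5 RPKM to 134 and 132 RPKM (log2 fold change 0.62 ± 0.04, SE; adjusted p = 3.3e-07), which passed the 1.5-fold limit where the 0.37 ± 0.04 with SGC-CBP30 did not. CCNA2 and CCNB2, the other mitotic cyclins on the list, had log2 fold changes of 0.31 and 0.29 with SGC-CBP30 and 0.23 and 0.44 with CPI203. CCNA2 lies over EXOSC9 (42 RPKM) in the deposited positions, so that reads of the overlap are uncertain.

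The CDC25 phosphatases, which remove the inhibitory phosphates from CDK1, did not move together. CDC25B (chr20:3767578-3786762, hg19) was at 57.6 and 62.1 RPKM in DMSO and 36.4 and 36.4 RPKM with SGC-CBP30. The CPI203 libraries held 81.3 and 79.9 RPKM, against 48.2 and 45.7 RPKM in DMSO. It was thus low in both SGC-CBP30 libraries and high in both CPI203 libraries, with no overlap. The log2 fold changes were -0.71 ± 0.05 (SE; limma adjusted p = 6.77e-06) and 0.78 ± 0.05 (adjusted p = 5.33e-07). The difference of -1.49 ± 0.07 between the compounds was the largest of the members (adjusted p = 3.85e-07), and CDC25B was the only member lower with SGC-CBP30 and higher with CPI203. CDC25C, which acts at mitotic entry, was at 8.12 and 7.79 RPKM in DMSO and 9.32 and 9.95 RPKM with SGC-CBP30. With CPI203 it roughly doubled, from 6.40 and 6.84 RPKM to 13.4 and 12.8 RPKM (log2 fold change 0.98 ± 0.07, SE; adjusted p = 2.06e-06). CDC25C lies over FAM53C (25.9 RPKM) in the deposited positions, so that reads of the overlap are uncertain.

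GTSE1, a G2 and S phase protein that restrains p53, was at 19.9 and 20.5 RPKM in DMSO and 23.4 and 23.9 RPKM with SGC-CBP30. It rose with CPI203 from 16.6 and 16.1 RPKM to 28.8 and 28.2 RPKM (log2 fold change 0.80 ± 0.05, SE; adjusted p = 5.61e-07). Both treated pairs lay above their DMSO pairs. FOXM1, the transcription factor that activates many genes of this set, was at 36.4 and 39.2 RPKM in DMSO and 37.6 and 40.3 RPKM with SGC-CBP30. In the CPI203 experiment it was at 28.1 and 27.3 RPKM, against 30.0 and 27.5 RPKM in DMSO. Treated and control values overlapped in both experiments, and FOXM1 was the only member that passed the test with neither compound (log2 fold changes 0.04 ± 0.06 and -0.05 ± 0.06, SE). FOXM1 lies over ITFG2 (9.15 RPKM) and RHNO1 (17.3 RPKM) in the deposited positions, so that reads of the overlap are uncertain.

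Among the mitotic kinases and their partners, 5 of 6 rose with SGC-CBP30 at an adjusted p under 0.05 (25.6% of all genes). None of them rose by 1.5-fold, where 3.47% of all genes were called higher. With CPI203 4 rose and 1 fell (31.1% and 33.1% of all genes). PLK1, which acts from mitotic entry to cytokinesis, was at 107 and 113 RPKM in DMSO and 123 and 118 RPKM with SGC-CBP30 (log2 fold change 0.13 ± 0.04, SE; adjusted p = 0.0199). With CPI203 it was at 81.3 and 82.5 RPKM, against 82.9 and 82.7 RPKM in DMSO. The CPI203 libraries lay just under their controls, by less than the error of the fit (-0.02 ± 0.04), so no change of PLK1 was detected there. The difference between the compounds was 0.15 ± 0.05 (adjusted p = 0.0413). NEK2, a kinase of centrosome separation, was at 8.61 and 9.02 RPKM in DMSO and 11.7 and 13.5 RPKM with SGC-CBP30. The CPI203 libraries held 16.4 and 15.6 RPKM, against 8.88 and 10.7 RPKM in DMSO. All treated values were above their controls, and the rise with CPI203 (log2 fold change 0.71 ± 0.10, SE; adjusted p = 0.000152) fell to 0.57, under the 1.5-fold limit, when replicate 1 of its DMSO was left out. The Aurora kinases AURKA and AURKB, which act on centrosomes and on the chromosomal passenger complex, had log2 fold changes of 0.33 and 0.33 with SGC-CBP30 and 0.19 and 0.51 with CPI203. The AURKB values depended on the controls, since with all 4 DMSO libraries they were 0.67 and 0.17 (adjusted p = 0.0737 and 0.529). BIRC5 (survivin), the partner of AURKB in that complex, differed from it, with 0.09 and -0.11 (adjusted p = 0.102 and 0.0386). TPX2, which activates AURKA, had 0.15 and 0.26.

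The spindle checkpoint and APC/C group was where the mitotic genes split. The checkpoint holds back the anaphase promoting complex (APC/C) until every kinetochore is attached, with MAD2L1, BUB3 and BUB1B as parts of the inhibitor and BUB1 and TTK as kinases that build it. With SGC-CBP30, 6 of 8 were higher and 1 lower at an adjusted p under 0.05 (25.6% and 14.8% of all genes). With CPI203, 5 of 8 were lower and 3 higher (33.1% and 31.1% of all genes). The median log2 fold change of the group was -0.12 with CPI203, against 0.20 with SGC-CBP30. None of the 5 fell by 1.5-fold, where 14.4% of all genes were called lower. The decreases of MAD2L1 and BUB1B passed under every setting tried (highest adjusted p 0.000461 and 0.00436), while those of BUB1, BUB3 and UBE2C did not (highest adjusted p 0.105, 0.208 and 0.058). Over all 42 members the number lower with CPI203 went from 6 to 3 after quantile normalization and to 3 when CPI203 replicate 1 was left out.

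BUB1 (chr2:111395275-111435691, hg19) was at 121 and 118 RPKM in DMSO and 72.5 and 75.1 RPKM with SGC-CBP30. In the CPI203 experiment it was at 94.2 and 90.3 RPKM, against 100 and 103 RPKM in DMSO. It was lower than DMSO with both compounds, without overlap, and the only member to be so. The log2 fold change was -0.69 ± 0.04 (SE; adjusted p = 2.42e-06) with SGC-CBP30 and -0.14 ± 0.04 (adjusted p = 0.00999) with CPI203, and the difference of -0.55 ± 0.06 passed the test (adjusted p = 3.06e-05). With all 4 DMSO libraries as controls, BUB1 and CDC25B were at -0.58 and -0.54 with SGC-CBP30, just under the 1.5-fold limit, and no member was then called lower.

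TTK (MPS1), the kinase at the head of the checkpoint, was at 12.3 and 12.2 RPKM in DMSO and 17.9 and 19.1 RPKM with SGC-CBP30. With CPI203 it was at 22.4 and 21.1 RPKM, against 12.2 and 13.2 RPKM in DMSO. TTK was higher with both compounds, by 0.59 ± 0.06 (SE; adjusted p = 0.000141) and 0.77 ± 0.06 (adjusted p = 3.94e-06). The first of these lies at the limit of 1.5-fold and fell below it without SGC-CBP30 replicate 2 (0.54) or DMSO replicate 2 (0.58), and under 4 other settings (0.50 to 0.57). MAD2L1, chosen for description after its values were seen, was at 66.3 and 66.7 RPKM in DMSO and 79.2 and 80.3 RPKM with SGC-CBP30. The CPI203 libraries held 49.7 and 49.2 RPKM, against 63.6 and 66.1 RPKM in DMSO. It lay above its controls in one experiment and below them in the other (log2 fold changes 0.26 ± 0.04 and -0.39 ± 0.04, SE), and the difference of 0.65 ± 0.05 was the largest of the members in that direction (adjusted p = 8.34e-06). BUB3 and UBE2C, the ubiquitin-conjugating enzyme of the APC/C, likewise were higher with SGC-CBP30 (0.15 and 0.23) and lower with CPI203 (-0.09 and -0.14). BUB1B was lower with CPI203 (-0.36 ± 0.05, SE; adjusted p = 0.000142) and did not pass the test with SGC-CBP30 (0.03 ± 0.05, adjusted p = 0.699). CDC20, the activator of the APC/C, and PTTG1 (securin), its substrate, were higher with both compounds (0.17 and 0.28 with SGC-CBP30, 0.17 and 0.50 with CPI203). The rise of CDC20 failed the test under other settings with both compounds, with lowest values of 0.09 and 0.04 (highest adjusted p 0.242 and 0.751). PTTG1 has near copies in the table, PTTG3P at a mean of 7.92 RPKM and PTTG2 at 0.474 RPKM, so its reads may have been shared.

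**Figure D2:**
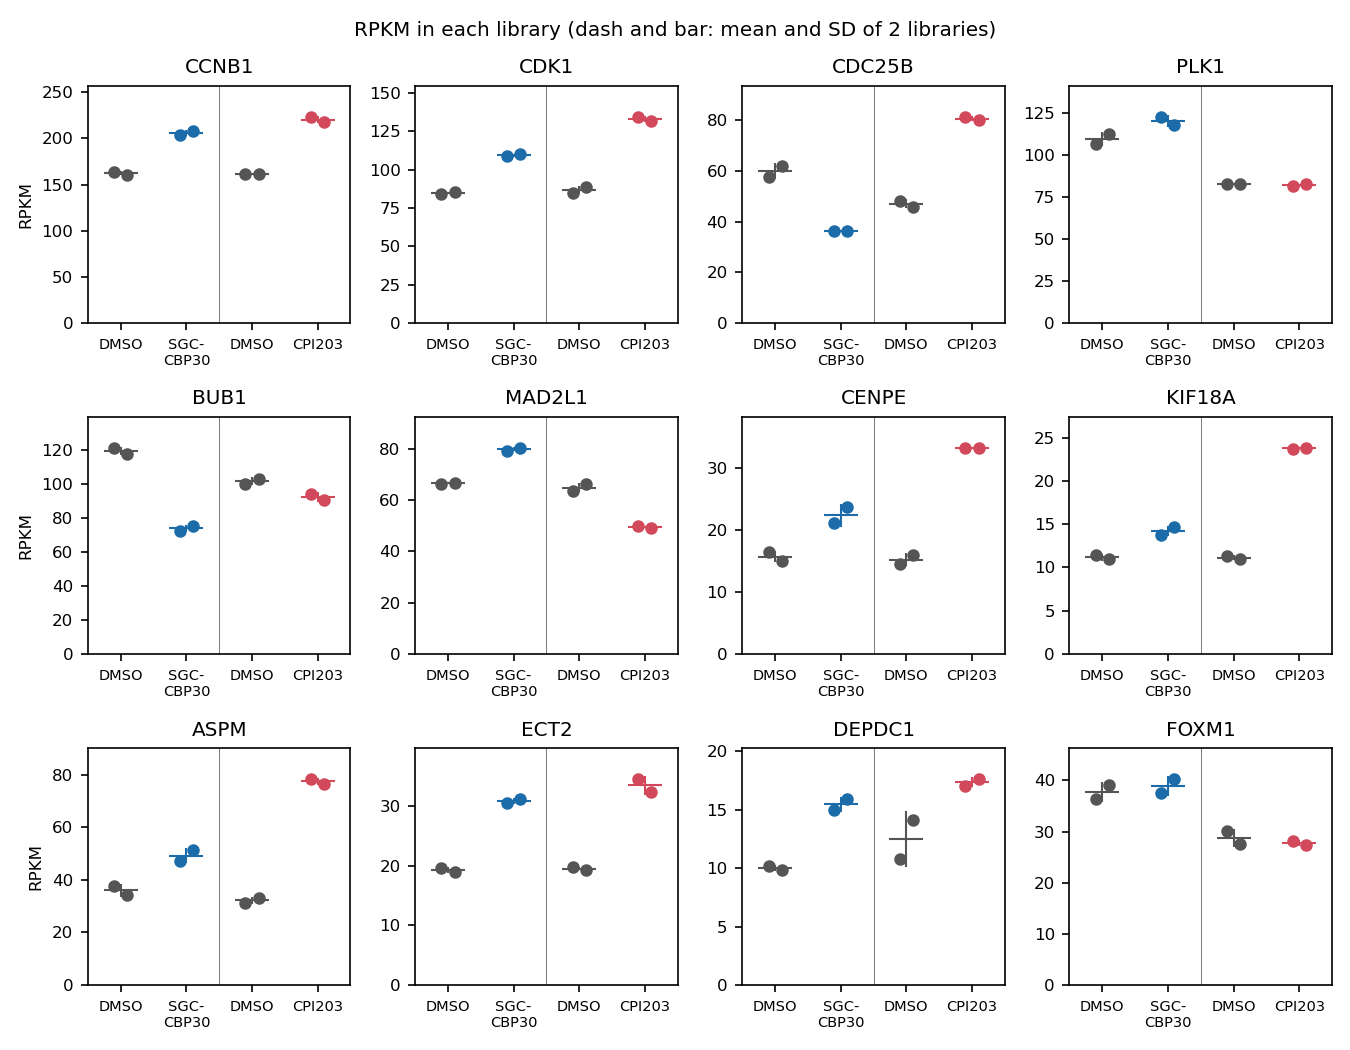
RPKM of 12 mitotic genes in each library. Grey points are DMSO, blue SGC-CBP30 and red CPI203, dashes and bars give the mean and SD of 2 libraries, and each y axis starts at 0. CDC25B and MAD2L1 move in opposite directions with the 2 compounds, BUB1 is low with SGC-CBP30 (72.5 and 75.1 RPKM), and FOXM1 overlaps its controls.

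Kinesins, the motors that move chromosomes and slide spindle microtubules, had log2 fold changes above 0 with both compounds in all 8 genes, from 0.11 to 0.51 with SGC-CBP30 (median 0.338) and from 0.16 to 1.12 with CPI203 (median 0.724). At an adjusted p under 0.05, 7 of 8 rose with each compound (25.6% of all genes with SGC-CBP30 and 31.1% with CPI203). With CPI203 6 of 8 were called higher (13.4% of all genes), and with SGC-CBP30 none was (3.47% of all genes). CENPE (chr4:104026963-104119566, hg19), the motor that carries chromosomes to the metaphase plate, was at 16.4 and 15.1 RPKM in DMSO and 21.1 and 23.7 RPKM with SGC-CBP30. In the CPI203 experiment it was at 33.3 and 33.2 RPKM, against 14.5 and 16.02 RPKM in DMSO. It was the kinesin with the largest change with each compound (0.51 ± 0.07 and 1.12 ± 0.07, SE), and the difference of -0.62 ± 0.11 passed the test (adjusted p = 0.000943). KIF18A, which limits the swing of aligned chromosomes, was at 11.5 and 10.9 RPKM in DMSO and 13.8 and 14.6 RPKM with SGC-CBP30. With CPI203 it was at 23.7 and 23.8 RPKM, against 11.3 and 10.95 RPKM in DMSO (log2 fold change 1.08 ± 0.06, SE; adjusted p = 3.11e-07). KIF20A, a kinesin of cytokinesis, was at 22.8 and 23.5 RPKM in DMSO and 29.6 and 30.1 RPKM with SGC-CBP30, and rose from 21.4 and 20.7 RPKM to 35.8 and 34.7 RPKM with CPI203 (0.74 ± 0.05). None of the treated values of these motors overlapped its controls.

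KIF11 (Eg5), which pushes the spindle poles apart, KIF4A and KIF23 were also called higher with CPI203 (log2 fold changes 0.72, 0.72 and 0.65), and the latter pair fell just under the limit when all 4 DMSO libraries served as controls (0.58 and 0.54). KIF2C did not pass the test with SGC-CBP30 (0.11 ± 0.06, adjusted p = 0.131), nor KIF14 with CPI203 (0.16 ± 0.07, adjusted p = 0.0918). KIF18A, KIF4A and KIF20A overlap METTL15 (11.4 RPKM), PDZD11 (29.9 RPKM) and CDC23 and BRD8 (30.5 and 39.1 RPKM) in the deposited positions, and KIF4A has a near copy, KIF4B, at a mean of 3.70 RPKM. Reads shared between these genes make their values uncertain.

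Among the 12 genes of chromosome structure, spindle assembly and cytokinesis, 10 rose with each compound at an adjusted p under 0.05. Of all genes, 25.6% did so with SGC-CBP30 and 31.1% with CPI203. ASPM (chr1:197053258-197115824, hg19), a protein of the spindle poles, was at 37.8 and 34.2 RPKM in DMSO and 47.2 and 51.3 RPKM with SGC-CBP30. The CPI203 libraries held 78.4 and 76.4 RPKM, against 31.4 and 33.0 RPKM in DMSO. Its log2 fold change of 1.26 ± 0.06 with CPI203 (SE; adjusted p = 1.28e-07) was the largest of the 42 members, and the 0.45 ± 0.06 with SGC-CBP30 differed from it (adjusted p = 4.33e-05). CKAP2, which stabilises spindle microtubules, was at 39.3 and 38.2 RPKM in DMSO and 44.8 and 47.8 RPKM with SGC-CBP30. It was at 91.3 and 89.3 RPKM with CPI203, against 43.3 and 46.5 RPKM in DMSO (1.01 ± 0.05, SE; adjusted p = 1.5e-07). Both CPI203 libraries were well above every other library.

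ECT2 and ANLN act in cytokinesis, the first by switching on RhoA at the midzone and the second as a scaffold of the contractile ring. ECT2 was at 19.7 and 19.0 RPKM in DMSO and 30.5 and 31.3 RPKM with SGC-CBP30. In the CPI203 experiment it was at 34.6 and 32.4 RPKM, against 19.7 and 19.3 RPKM in DMSO. It was called higher with both (0.67 ± 0.05 and 0.78 ± 0.05, SE), the difference of -0.10 ± 0.07 did not pass the test (adjusted p = 0.267), and its call with SGC-CBP30 held under every setting tried. ANLN was at 10.1 and 11.2 RPKM in DMSO and 14.99 and 14.6 RPKM with SGC-CBP30. With CPI203 it was at 27.2 and 24.1 RPKM, against 11.3 and 14.0 RPKM in DMSO (1.02 ± 0.10, SE; adjusted p = 1.47e-05). Treated and control values of both genes did not overlap.

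DEPDC1 was at 10.2 and 9.83 RPKM in DMSO and 15.03 and 15.9 RPKM with SGC-CBP30 (0.63 ± 0.11, SE; adjusted p = 0.00179), and this rise fell under the limit in 5 settings. It was 0.58 without SGC-CBP30 replicate 2, and 0.47 with all 4 DMSO libraries as controls, where it failed the test (adjusted p = 0.0583). Its DMSO libraries of the CPI203 experiment were far apart, at 10.8 and 14.2 RPKM, against 17.1 and 17.6 RPKM with CPI203. TOP2A, the topoisomerase that untangles sister chromatids, was at 67.8 and 63.1 RPKM in DMSO and 76.6 and 82.4 RPKM with SGC-CBP30. The CPI203 libraries held 75.3 and 73.3 RPKM, against 60.8 and 65.1 RPKM in DMSO. TOP2A was modestly above its controls in both experiments (0.28 ± 0.05 and 0.24 ± 0.05, SE). The other members of the group were NUSAP1, DLGAP5, HMMR, PRC1, CENPF and CENPM, and all but CENPM were above 0 with both compounds. DLGAP5 and NUSAP1 lay just below the limit of 1.5-fold with CPI203 (0.58 and 0.58). CENPM, a kinetochore protein, was lower with SGC-CBP30 (-0.20 ± 0.05, SE; adjusted p = 0.00879), at 57.6 and 58.7 RPKM against 65.9 and 67.4 RPKM, and overlapped its controls with CPI203. Against all 4 DMSO libraries its change with SGC-CBP30 turned to 0.08 (adjusted p = 0.789).

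**Figure D3:**
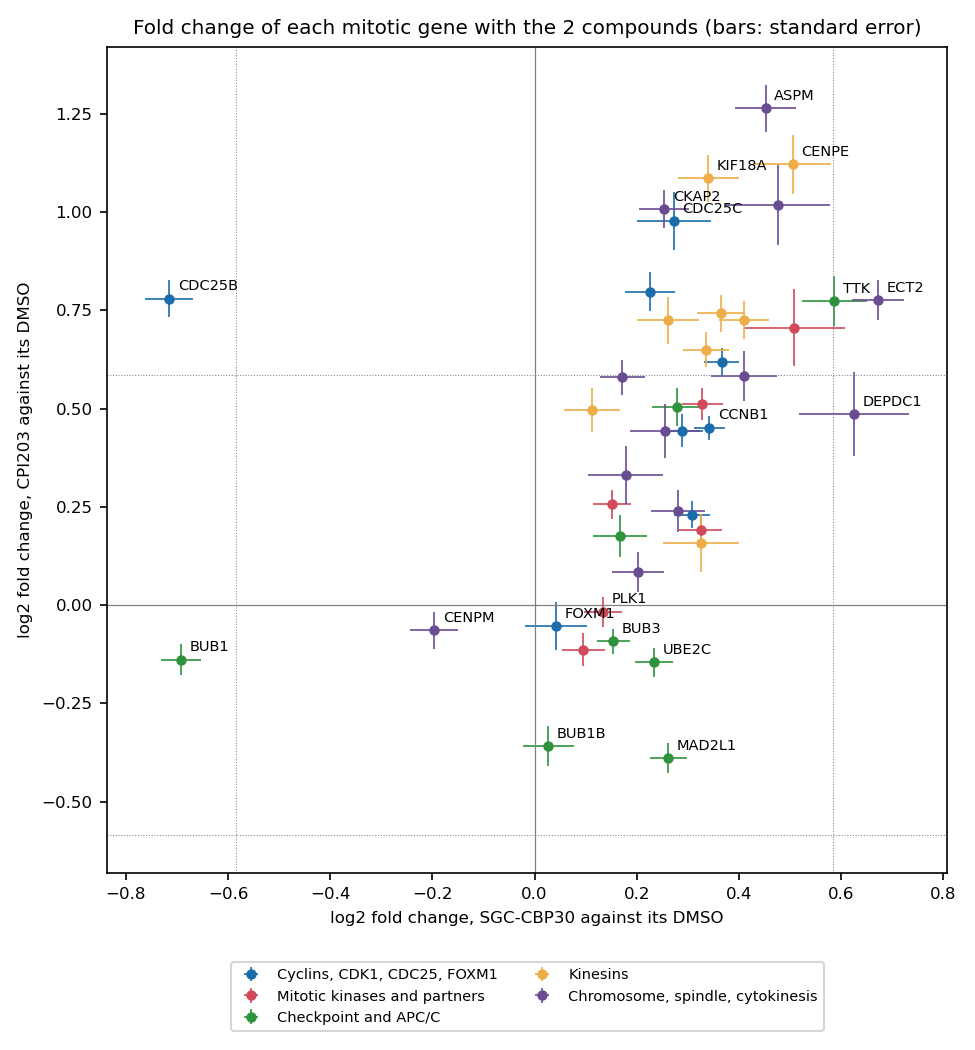
Log2 fold change of each of the 42 mitotic genes with SGC-CBP30 (x axis) and CPI203 (y axis), each against its own DMSO. Points are coloured by role, bars are standard errors and dotted lines mark 1.5-fold. Most points lie in the upper right, CDC25B stands alone at upper left, and genes of the checkpoint and APC/C group make up most of the lower right.

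Across both compounds, 28 of 42 members were higher with each at an adjusted p under 0.05, which 13.7% of all genes tested were. BUB1 alone was lower with both (8.4% of all genes), though not under every setting with CPI203. BUB3, MAD2L1 and UBE2C were higher with SGC-CBP30 and lower with CPI203 (5.14% of all genes), and CDC25B was the reverse (2.53% of all genes). The remaining members passed the test with 1 compound (8 members) or with neither (FOXM1). Over the 42 members the log2 fold changes with the compounds had a Pearson r of 0.42 and a Spearman rho of 0.58, as a description across genes of the same libraries. The difference between the compounds passed an adjusted p under 0.05 in 25 of 42 members (50.3% of all genes). The fold change with CPI203 was above that with SGC-CBP30 in 19 of these and below it in 6. These are differences between fold changes and not between levels. They depend on the controls, since 32 of 42 members were lower in the DMSO of CPI203 than in that of SGC-CBP30. Over all 14732 genes tested, the fold change was higher with CPI203 in 3101 and with SGC-CBP30 in 4315 at this threshold. In the kinesins it was higher with CPI203 in 7 of 8. In the checkpoint and APC/C group it was higher with SGC-CBP30 in 4 and with CPI203 in 2 of 8.

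Other mitotic genes moved the same way with smaller medians. In 5 further lists, of kinetochore and centromere, condensin and cohesin, spindle and cytokinesis, mitotic entry and APC/C genes, 106 genes were tested. With SGC-CBP30 57 were higher and 4 lower at an adjusted p under 0.05 (25.6% and 14.8% of all genes), and 65 and 5 unadjusted. None changed by 1.5-fold, where 3.47% of all genes were called higher and 3.79% lower, and the median log2 fold change was 0.192. With CPI203 61 were higher and 16 lower (31.1% and 33.1% of all genes). By 1.5-fold or more 22 were higher and 1 lower (13.4% and 14.4% of all genes), and the median was 0.215. With all 4 DMSO libraries as controls the medians were 0.237 (SGC-CBP30) and 0.125 (CPI203), so which was larger depended on the controls. CDCA2, a phosphatase subunit that acts on mitotic chromatin, rose from a mean of 23.0 to 58.7 RPKM with CPI203 (1.35 ± 0.04, SE; adjusted p = 1.78e-08). The spindle protein CKAP2L (1.31 ± 0.12) and the kinetochore proteins CENPC (1.302 ± 0.084) and KNL1 (1.24 ± 0.08) were also called higher. MKI67, the proliferation marker Ki-67, averaged 31.8 RPKM in DMSO against 32.6 RPKM with SGC-CBP30 (0.04 ± 0.06, adjusted p = 0.666). It rose from 19.0 to 34.1 RPKM with CPI203 (0.84 ± 0.06, SE; adjusted p = 1.69e-06). The 34.1 RPKM lay near the 31.8 RPKM in DMSO of the SGC-CBP30 experiment, so the size of this rise depends on the controls. WEE1, the kinase that opposes CDC25, was higher with both (0.28 and 0.43). Of 17 APC/C subunits and regulators, SGC-CBP30 raised 9 and lowered 0 (25.6% and 14.8% of all genes). With CPI203 4 were higher and 5 lower, near the 31.1% and 33.1% of all genes. CDC26 was the only gene of the 5 lists called lower with CPI203 (-0.67 ± 0.10).

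**Figure D4:**
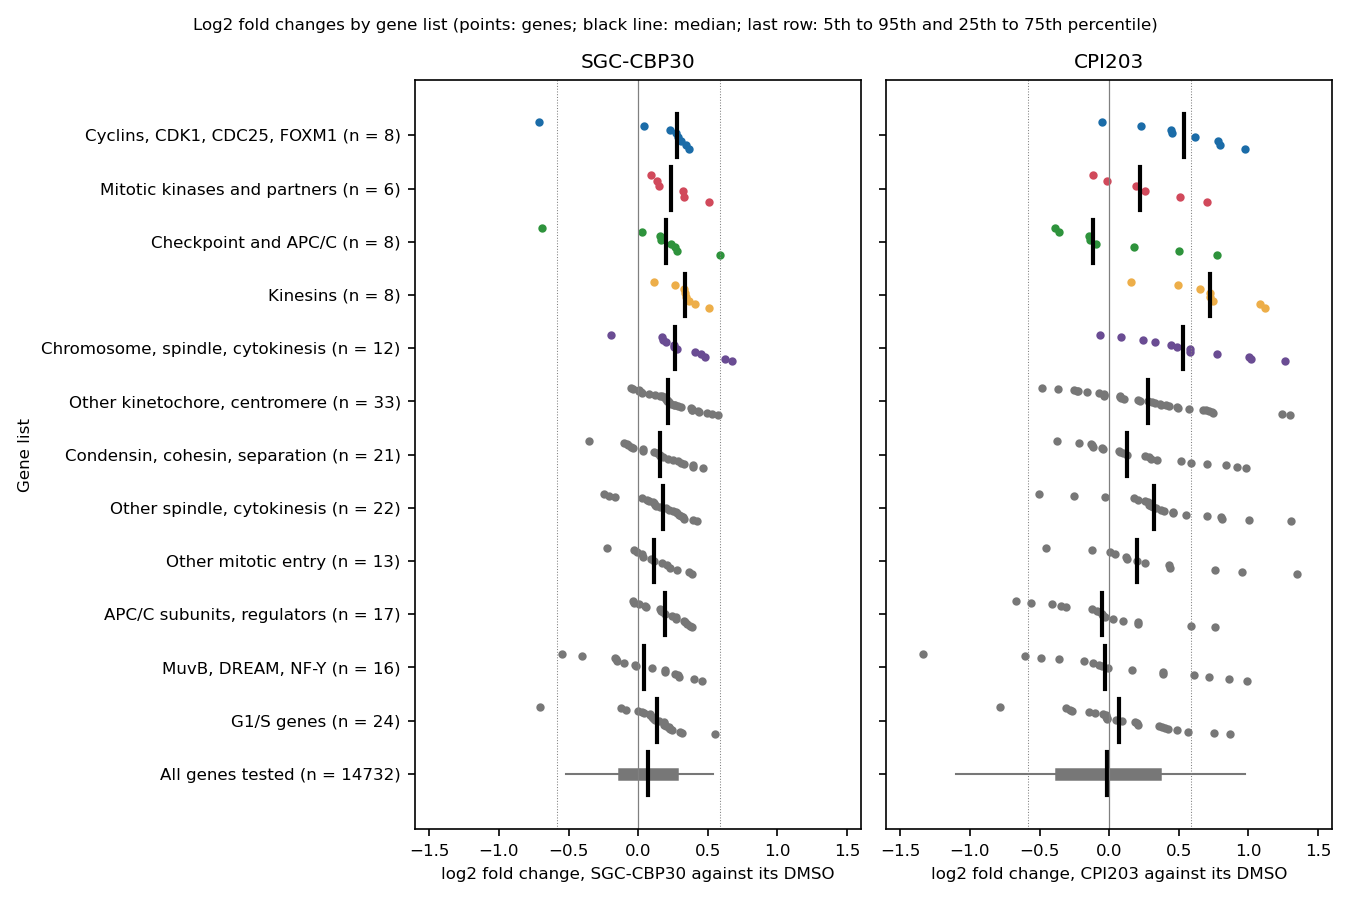
Log2 fold changes by gene list with SGC-CBP30 (left) and CPI203 (right), each against its own DMSO. Points are genes, black lines medians, the bottom row shows percentiles of all 14732 genes and dotted lines mark 1.5-fold. Kinesins lie furthest to the right with CPI203 (median 0.724), and the checkpoint and APC/C group and the APC/C subunits lie around 0.

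The regulators that read these promoters were examined in the same way. Of 16 genes of MuvB, DREAM and NF-Y, none was called with SGC-CBP30 by limma, where 3.47% of all genes were called higher and 3.79% lower. At an unadjusted p under 0.05, 4 were lower and 7 higher with SGC-CBP30. With CPI203, 4 were called higher and 2 lower, against 13.4% and 14.4% of all genes. E2F5 and E2F4, the repressive factors of DREAM, fell with CPI203 (-1.34 ± 0.06 and -0.60 ± 0.05, SE; adjusted p = 5.65e-08 and 2.17e-06), from means of 33.2 to 13.04 RPKM and 80.03 to 52.6 RPKM. NFYA, the DNA-binding subunit of NF-Y, rose from 19.9 to 39.7 RPKM (0.99 ± 0.05), and MYBL1 and the MuvB subunit LIN54 rose by 0.86 and 0.72. With SGC-CBP30 the same genes had log2 fold changes of -0.10 (E2F5), 0.10 (E2F4), 0.29 (NFYA), -0.55 (MYBL1) and 0.19 (LIN54). E2F5 and MYBL1 averaged 33.2 and 22.6 RPKM in the DMSO of CPI203, against 23.5 and 16.3 RPKM in that of SGC-CBP30. The sizes of their changes therefore depend on the controls. MYBL2 was abundant in every group and was at -0.17 ± 0.04 with SGC-CBP30 (adjusted p = 0.00636) and -0.01 ± 0.04 with CPI203. LIN9 was at 0.46 and -0.18, RBL1 at 0.40 and 0.39, and RBL2 at -0.02 and -0.11.

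The members differed from other genes in their median base composition. In GENCODE 29 the longest coding transcript of the members had a median GC content of 42.6%. In the 10579 other tested genes with a coding transcript it was 48.0%. Single members ranged from 34.7% (DEPDC1) to 61.4% (CENPM). Genes of low GC content were higher with both compounds in general. With SGC-CBP30 the 13 members under 40% GC had a median log2 fold change of 0.37 and the 10 members at 50% or more had 0.12, against 0.23 and -0.01 for other genes in the same ranges. With CPI203 the same members had medians of 0.62 and 0.08, against 0.16 and -0.09. Between these ranges the 12 members from 40 to 45% had 0.30 and 0.45, and the 7 from 45 to 50% had 0.27 and 0.50, against 0.15 and 0.06 and then 0.08 and -0.02 for other genes. Within every range the median of the members was above that of other genes. Across the 42 members the Spearman rho of GC content with log2 fold change was -0.64 with SGC-CBP30 and -0.36 with CPI203, as a description of genes measured in the same libraries (-0.34 and -0.17 over the other genes). The part of base composition in the changes was not tested.

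**Figure D5:**
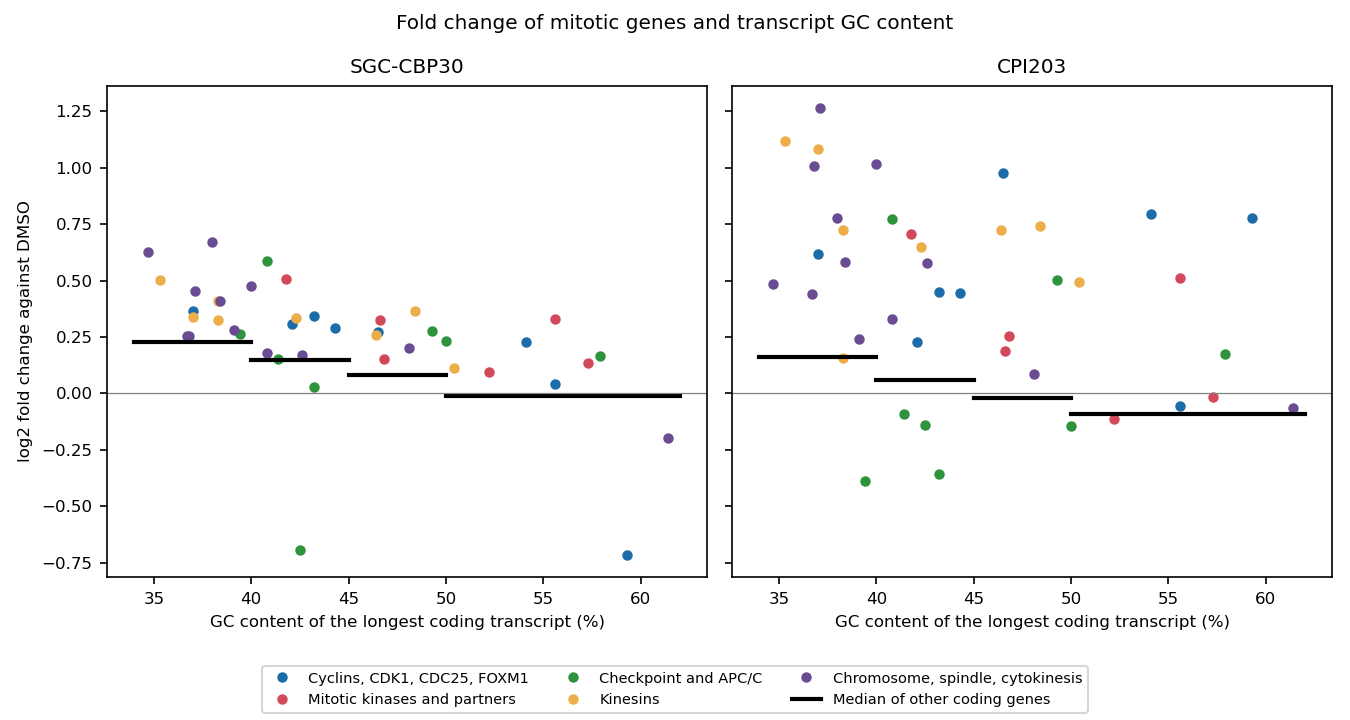
Log2 fold change of each mitotic gene against the GC content of its longest coding transcript, with SGC-CBP30 (left) and CPI203 (right). Points are genes coloured by role and black lines are medians of other coding genes in 4 GC ranges. Low GC points lie higher, and most points are above the black lines. Points below them include BUB1B and MAD2L1 with CPI203 and CDC25B and BUB1 with SGC-CBP30.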

How the data were processed

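LP-1 RNA was sequenced and mapped commercially, and the values the authors deposited are in RPKM. The submitters' processing notes name TopHat 1.4.1, Cufflinks and build hg19, and the annotation release is not given in the sources used here. The table's 24 further columns were not used. Leaving out 27 genes that lacked a value, those averaging 1 RPKM or more were fitted as log2(RPKM + 0.1), without further scaling, with limma 3.58.1 in R 4.3.3 (4 group means, 8 libraries, intensity trend, Benjamini-Hochberg adjustment over 14732 genes). The contrasts were each compound against its own DMSO and the difference between these. No count test was run, since only 56.8% to 73.6% of low values were whole reads (within 0.05 of a whole number), so depths are estimates.

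The members and the gene lists were chosen with earlier results of these data known. Members described with all 8 values were, per role group and compound, up to 3 called members with the largest change, plus FOXM1, CCNB1, CDK1, PLK1 and TOP2A. From other lists, MYBL2, LIN9, LIN54, E2F4, RBL1, RBL2, CDKN1A, MKI67, WEE1 and IRF4 and at most 3 called genes per list were named. With 2 libraries against 2, an exact permutation test cannot give a two-sided p under 0.333. The study calls the replicates biological but the labels name no separate cultures, so p-values measure the spread between these libraries. Same-numbered libraries did not deviate together (correlation -0.172 and -0.039). The fit was tested on simulated data. Symbols and hg19 positions came from the deposited annotation, transcript GC content from GENCODE 29 by Ensembl identifier, and promoters from RefSeq by symbol. Python 3.11.15, pandas 2.3.3, numpy 2.4.6, scipy 1.17.1 and matplotlib 3.10.9 were used.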

Additional observations from a re-analysis of the deposited data

How the results depend on the processing

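Tried in turn were quantile normalization, median scaling, a pseudocount of 1, a minimum mean of 5 RPKM, dropping the filter, the trend or the minimum fold, pooling the 4 DMSO libraries, fitting the experiments apart, a block by replicate number, and leaving out each library. Members called higher with SGC-CBP30 went from 3 to 1 with a pseudocount of 1, median scaling, quantile normalization or all 4 DMSO libraries, to between 1 and 5 with a library left out, and to 34 with no minimum fold. Members called lower with SGC-CBP30 went from 2 to 0 with all 4 DMSO libraries. With no minimum fold, 6 members were lower and 31 higher with CPI203, and the 6 became 3 after quantile normalization and 3 to 5 with a library left out (3 without CPI203 replicate 1). The member median of 0.276 with SGC-CBP30 was 0.199 after median scaling and 0.346 with all 4 DMSO libraries. That of 0.491 with CPI203 was 0.476 with all 4 DMSO libraries and 0.465 to 0.509 with a library left out. For the other mitotic lists the SGC-CBP30 median of 0.192 was 0.116 (median scaling), 0.149 (quantile) and 0.237 (all 4 DMSO), and the CPI203 median of 0.215 was 0.204, 0.254 and 0.125, and 0.199 to 0.245 with a library left out. In these lists 1 gene was called higher with SGC-CBP30 with all 4 DMSO libraries and 0 to 2 with a library left out, and 0 to 3 were called lower with CPI203. Signs turned for 4 genes, of which CENPM had passed the test: with SGC-CBP30 FOXM1 (-0.03) and BUB1B (-0.05) after median scaling, both -0.01 at the lowest with a library left out (to 0.10 for FOXM1 and 0.07 for BUB1B), and CENPM 0.08 with all 4 DMSO libraries, and with CPI203 PLK1 0.04 after quantile normalization and FOXM1 -0.12 to 0.01 with a library left out. The cause was not tested. The study describes paired DMSO controls and the labels share replicate numbers, but no source says that a number marks a shared culture or day, and same-numbered libraries did not deviate together. With the replicate number as a block 21 members differed between the compounds, with crossed numbers (chosen after seeing the data) 25, against 25 in the fit reported, and calls with either compound did not change in number, though under the block PLK1 and CDC20 with SGC-CBP30 and BIRC5 and BUB3 with CPI203 no longer passed the test. Depth limits the least abundant members, and 2 libraries per group, 1 dose and 1 time limit them all.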

Other observations

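Genes of other cycle phases were also examined. Of 24 G1/S genes, 14 were higher and 2 lower with SGC-CBP30 at an adjusted p under 0.05 from limma (25.6% and 14.8% of all genes), and 12 were higher and 5 lower with CPI203 (31.1% and 33.1%), with medians of 0.138 and 0.07. CCNE1, a cyclin of S phase entry, was called lower with SGC-CBP30 (log2 fold change -0.70), while CCNE2 and the ribonucleotide reductase subunit RRM2 were called higher with CPI203 (0.75 and 0.86) and the repair enzyme UNG lower (-0.79). E2F7, a repressive E2F, was higher with both compounds (0.67 and 1.38), and E2F2 was called lower with SGC-CBP30 (-0.66) and was at -0.56 with CPI203.

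The CDK inhibitor CDKN1A (p21) was near the pseudocount in 6 of 8 libraries and passed the filter through the CPI203 libraries, so its values are given without a test. It was at 0.217 and 0.121 RPKM in DMSO and 6.17 and 6.57 RPKM with CPI203, against 0.174 and 0.175 RPKM in DMSO and 0.229 and 0.233 RPKM with SGC-CBP30. CDKN2D rose from 1.29 to 8.20 RPKM and CDKN2C from 225 to 365 RPKM with CPI203. CDKN2B went the other way with SGC-CBP30, from 22.8 to 9.01 RPKM (-1.33 ± 0.06, SE; adjusted p = 1.03e-06), and did not pass the test with CPI203 (0.08 ± 0.06, adjusted p = 0.313).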
